A study of Mus musculus with 12 samples.

Results

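The genes described are the 87 cytosolic ribosomal protein genes measured in E14 mouse embryonic stem cells, out of 52535 gene entries. They were chosen by symbol, as names of the Rpl and Rps series together with Rplp0, Rplp1, Rplp2 and Rpsa, without names marked as pseudogenes, and with 10 or more counts summed over the libraries. Of 88 matching entries, Rps12l1 had no count and was left out. The 87 comprise 52 of the large and 35 of the small subunit, and 4 of them (Rpl6l, Rps3a2, Rps3a3 and Rps4l) are annotated as pseudogenes in GENCODE M21 in spite of their names. E14 is a stem cell line that was grown with serum, LIF and 2i. The 6 libraries were 2 of a first clone labelled Bcat1-KO (KO1), 2 of a second clone with the same label (KO2) and 2 of wild type (WT). Each knockout group is therefore 1 clone, and the 4 knockout libraries are not independent replicates of the genotype. How the knockout was made, and whether replicates are separate cultures, is not given in the labels, so p-values reflect only how far these libraries spread, and that spread may be technical. Another 6 samples, from day 0 and day 7, were not used here.

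Ribosomal proteins join the ribosomal RNAs to form the large and small subunits of the cytosolic ribosome, the machine that translates mRNA. Their mRNAs are abundant, short and mostly begin with a terminal oligopyrimidine tract (TOP), an unbroken run of C and T at the start of the transcript through which the mTORC1 kinase controls their translation. When ribosome assembly fails, free Rpl5 and Rpl11 bind Mdm2, which stabilises p53.

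The start regions were read first, because the TOP tract is the feature of sequence these mRNAs are known for. RefSeq start sites (GRCm38.p6) were matched by symbol for 63 of the 87 genes. The longest unbroken run of C and T, on the strand of the gene, that overlapped the 10 bases on either side of the start was 8 or longer in 29 of the 63 (46.0%, 95% exact binomial interval 33.4% to 59.1%). Among all 27025 genes with a RefSeq start the share was 15.8%. The base at the start itself was C in 29.3% of 75 annotated starts of ribosomal protein genes and in 16.3% of all 32851 starts. The longest runs were 21 bases in Rpl7a and 20 bases in Rpl27a and Rpl34. The start regions of genes that the results below turn on are shown here from 10 bases before the start to 20 bases from it, 30 bases each, with the run in capitals. They are the member with the strongest fall in KO1 (Rps28), a P stalk gene (Rplp0), a large subunit gene called in both comparisons that involve KO1 (Rpl14), 3 paralogs that changed in KO2 (Rpl22l1, Rpl10l and Rps27l) and the parent of the last (Rps27).
Rps28, chr17:33824543-33824572, minus strand: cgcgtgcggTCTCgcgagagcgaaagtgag
Rplp0, chr5:115559457-115559486, plus strand: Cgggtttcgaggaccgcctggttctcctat
Rpl14, chr9:120571507-120571536, plus strand: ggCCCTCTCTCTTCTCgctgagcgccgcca
Rpl22l1, chr3:28805498-28805527, plus strand: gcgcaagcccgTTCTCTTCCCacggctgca
Rpl10l, chr12:66284382-66284411, minus strand: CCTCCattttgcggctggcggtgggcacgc
Rps27, chr3:90213629-90213658, minus strand: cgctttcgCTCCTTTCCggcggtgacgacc
Rps27l, chr9:66946076-66946105, plus strand: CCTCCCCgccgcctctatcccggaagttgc
Rpl14 had the longest run of these, 14 bases that span the start, and Rps28 had one of 4 bases. The runs of Rplp0 (5 bases) and Rps27l (9 bases) reach upstream of the bases shown, and for Rps27l, which has 2 starts in RefSeq, the one with the longer run is given. A run is a description of these letters, and a short one says nothing about the start the cells used.

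Gene counts per library totalled 11976149 to 13923262. Bcat1 RNA did not separate the libraries labelled knockout from WT: it averaged 639 ± 31.9 CPM in KO1, 581 ± 2.38 CPM in KO2 and 608 ± 8.35 CPM in WT (SD, n = 2 each; CPM are library-scaled counts after TMM normalisation), with a log2 fold change of 0.01 ± 0.08 (SE) and an adjusted p of 0.977 for both clones against WT, so the RNA does not check the label. The summed level of 8 stem cell markers was 5777 to 5901 CPM in KO1, 6203 to 6204 CPM in KO2 and 6390 to 6577 CPM in WT. The summed level of 9 fibroblast and feeder markers was 32.1 to 33.5 CPM in KO1, 20.7 to 21.0 CPM in KO2 and 23.7 to 23.9 CPM in WT, with Postn, Lum, Dcn and Acta2 at 0 counts in every library. The sums were 81.6 to 97.4 CPM in KO1, 82.0 to 86.9 CPM in KO2 and 107 to 116 CPM in WT for trophoblast markers, 7.98 to 8.80, 4.90 to 7.28 and 2.47 to 4.51 CPM for endoderm markers, and 109 to 110.0, 91.5 to 100.4 and 91.0 to 103 CPM for neural ectoderm markers, in that order of groups. The single markers called with both clones as 1 genotype were Col1a2, Cdx2 and Nefl. Col1a2 had 22 and 15 counts in KO1, 11 and 18 in KO2, and 0 and 1 in WT. Cdx2 was lower in both clones (-3.76 in KO1 and -2.39 in KO2) and Nefl higher (1.43 and 2.14). Other markers of the trophoblast and neural ectoderm lists went other ways. In KO1 1 trophoblast marker was called higher and 1 lower, and in KO2 1 neural ectoderm marker was called higher and 2 lower. Of 4 fibroblast and feeder markers tested, 2 were called higher in KO1 and 1 in KO2, with 0 lower in either. Of 4 endoderm markers tested, 1 was called higher in each clone and 0 lower. Of the 8 stem cell markers, 3 were called lower in KO1, 1 was called lower in KO2, and 0 were called higher in either. Sox2 was called lower in both clones (-0.32 in KO1 and -0.28 in KO2). The part of these levels in the results below was not tested. Many ribosomal protein genes share sequence with processed copies elsewhere in the genome: the median member shared 55.5% of its 50-base windows with another gene, from 0%, as in Rpl3l and Rpl39l, to 98.6% in Rps27, so that reads of the most repeated members may be split or lost. Rps28, Rpl29 and Rpl22l1, whose values are given below, were among the 51 members that shared 50% or more.

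Levels spanned a wide range, although most members lay close together. Per kilobase of transcript, the median member stood at 911 CPM per kb over the 6 libraries, and 62 of the 87 lay between 500 and 2500 CPM per kb. Rplp1, an acidic protein of the P stalk that recruits elongation factors, was the highest at 3858 ± 550 CPM per kb in KO1, 4826 ± 450 in KO2 and 5038 ± 532 in WT (SD, n = 2 each). Rps2, a small subunit protein at the mRNA entry channel, followed at 3131 ± 464 CPM per kb in KO1, 3752 ± 70.4 in KO2 and 3578 ± 141 in WT. Rpl8, a core protein of the large subunit, was the third at 2521 ± 352 CPM per kb in KO1, 2889 ± 227 in KO2 and 3091 ± 65.0 in WT. In KO2 and WT the ranges of mean ± SD of neighbours in this order did not overlap, whereas in KO1 those of Rplp1 and Rps2, and of Rps2 and Rpl8, did. Between the KO1 libraries these genes moved together, by log2 differences of 0.29 (Rplp1), 0.30 (Rps2) and 0.29 (Rpl8). Their order was thus the same in both KO1 libraries. At the low end, Rpl29 stood at 22.7 ± 5.14 CPM per kb in KO1, 30.1 ± 2.02 in KO2 and 35.2 ± 0.193 in WT. Of its 50-base windows, 50% or more occur elsewhere, so some of its reads may be lost. Rpl3l, a paralog of Rpl3 known from heart and skeletal muscle, stood at 2.1 ± 0.272 CPM per kb in KO1, 0.923 ± 0.0848 in KO2 and 1.67 ± 0.298 in WT. Rpl24 had 3 to 10 counts per library and was the only member that failed the filter on low counts. Of its exon bases, 71.5% lie in another annotated gene, Gm28037, and 81.7% of its 50-base windows occur elsewhere, so this value is no measure of the gene's expression.

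**Figure D1:**
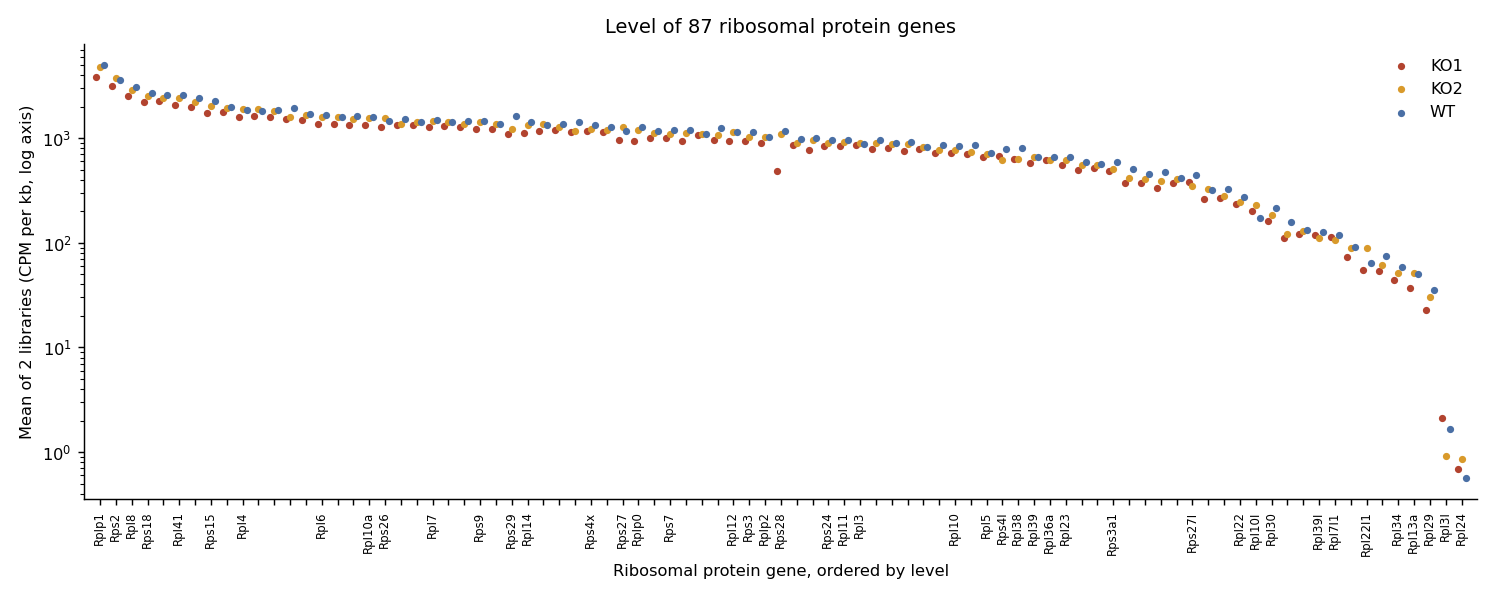
Level of each of the 87 ribosomal protein genes as the mean of 2 libraries per group, in CPM per kilobase of transcript on a log axis, ordered by the mean over all libraries and with some of the genes named on the axis, with KO1 in red, KO2 in yellow and WT in blue. Most genes lie near the median of 911 CPM per kb, the KO1 point of Rps28 stands below those of KO2 and WT, and Rpl3l and Rpl24 lie far below the rest.

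Together the 87 genes took 6.47% and 7.63% of gene counts in KO1, 7.23% and 7.95% in KO2, and 7.71% and 7.98% in WT. The first library of each clone was the lower one. On the TMM scale the sums were 62201 and 73852 CPM in KO1, 73072 and 80850 CPM in KO2, and 79054 and 82051 CPM in WT. Both KO1 libraries lay below both WT libraries, and the second KO2 library lay between those of WT. The first library of KO1 and that of KO2, the lowest in this share of counts, also had the most reads with no feature (5.35% and 4.80%, against 4.14% to 4.48% in the other 4), the fewest ambiguous reads (6.96% and 7.62%, against 8.40% to 9.10%) and the fewest reads with several alignments (15.6% and 15.8%, against 16.2% to 16.6%). The part of these read classes in the results was not tested. The summed level was 0.84 ± 0.10 of WT in KO1 and 0.96 ± 0.07 of WT in KO2 (SD carried over from 2 libraries a group). The sum of 166 detected entries named as ribosomal protein pseudogenes was 3824 and 3988 CPM in KO1, 4098 and 4395 CPM in KO2, and 4473 and 4470 CPM in WT. In RNA from whole cultures, fewer cells that express a gene and less RNA per cell cannot be told apart.

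With both clones taken as 1 genotype, no ribosomal protein gene passed the test. Of the 86 members tested, 84 had a negative fold change, the median log2 fold change was -0.16 against 0.00 over all 14946 genes tested, and 0 had an adjusted p under 0.05 in edgeR's quasi-likelihood test, which called 6.36% of all genes (4.25% higher and 2.11% lower). DESeq2 called 0 as well. In the edgeR test 12 of the 86 members had an unadjusted p under 0.05, against 3433 of all 14946 genes. In 25 members all 4 knockout libraries lay below both WT libraries, against 16.7% of all genes, and in 0 they lay above, against 18.3%. The lowest adjusted p was that of Rps3a1, a small subunit protein near the mRNA exit site, which had 434, 503, 466 and 521 CPM in the libraries labelled knockout, against 624 and 542 CPM in WT. All 4 knockout values lay below both WT values, with a log2 fold change of -0.28 ± 0.10 (SE) and an adjusted p of 0.124. Rps27l (-0.28 ± 0.10; adjusted p 0.132) and Rpl10l (0.32 ± 0.12; adjusted p 0.152), the next by p, are described with the paralogs. The genotype effect was also taken as the mean of both clone contrasts, an alternative chosen after the data were seen. It leaves the difference between clones out of the spread. It called 1 member higher and 14 lower, and 3226 of all genes, of which 55.1% were higher. With no filter on low counts 6 members were called lower, against 1752 genes called in all, of which 61.8% were higher.

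In KO1, 27 of the 86 ribosomal protein genes fell and 0 rose. The test called 21.9% of all genes in this comparison (12.4% higher and 9.53% lower). The 27 calls ranged from -1.28 to -0.21, the median of all 86 was -0.23, and 84 were negative. Both KO1 libraries lay below both WT libraries for 61 members and above for 1, while over all genes 28.8% lay below and 30.6% above. The calls comprised 17 of 51 large and 10 of 35 small subunit genes. The first KO1 library held the lowest value of the 6 libraries for 68 of 86 members, and it was the lowest for 19.9% of all genes. Without it the median was -0.11 and 1 member was called higher and 19 lower, and without the second KO1 library the median was -0.38 and 71 were called lower. Without the first or second WT library 5 and 4 members were called. The scaling mattered as well: with library size alone, which took the share of higher calls over all genes to 75.0% against 56.6% under TMM, 1 member was called higher and 7 lower. With upper-quartile scaling that share was 67.1% and 10 members were called lower.

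**Figure D2:**
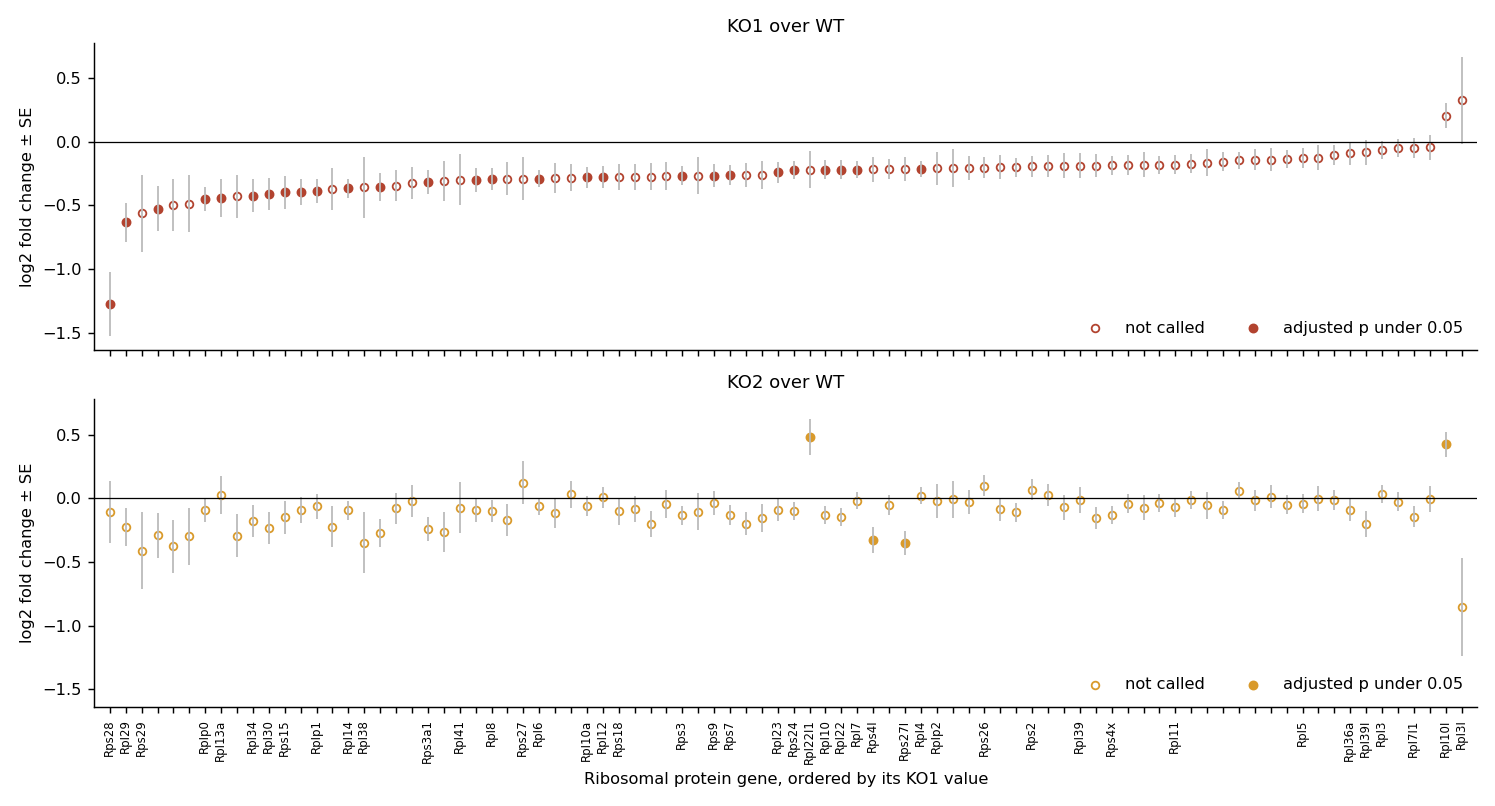
Log2 fold change with its standard error for each of the 86 tested ribosomal protein genes, KO1 over WT in the upper panel and KO2 over WT in the lower, in the order of the KO1 values and with some of the genes named on the axis, with filled points for an adjusted p under 0.05. In KO1 84 of 86 points lie below 0 and Rps28 lies lowest at -1.28. In KO2 most points lie nearer to 0, with 73 below it, and 4 are filled.

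The P stalk, the flexible arm of the large subunit that carries Rplp0 at its base and pairs of Rplp1 and Rplp2, was lower in KO1 for 2 of its 3 proteins. Rplp0 had 1109 and 1414 CPM in KO1, against 1645 and 1792 CPM in WT. Both KO1 values lay below both WT values, and the log2 fold change was -0.45 ± 0.09 (SE; adjusted p 0.00277). Rplp1 had 1731 and 2119 CPM in KO1, against 2326 and 2702 CPM in WT, again without overlap (-0.38 ± 0.10; adjusted p 0.00865). Rplp2 had 702 and 1022 CPM in KO1, against 959 and 1034 CPM in WT. Its groups overlapped, and the difference of -0.21 ± 0.13 did not pass the test (adjusted p 0.280).

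Rpl5 and Rpl11, which bind Mdm2 when ribosome assembly fails, did not pass the test in KO1. Rpl5, which with Rpl11 carries the ribosomal 5S RNA, had 1425 and 1286 CPM in KO1, against 1540 and 1420 CPM in WT, with a log2 difference of -0.13 ± 0.08 (SE; adjusted p 0.260). Rpl11 had 664 and 740 CPM in KO1, against 799 and 790 CPM in WT, with a difference of -0.18 ± 0.08 (adjusted p 0.105).

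Among other large subunit proteins, Rpl14 fell in KO1 under every alternative that was run. It had 1082 and 1167 CPM in KO1, against 1423 and 1474 CPM in WT, and the log2 fold change was -0.37 ± 0.08 (SE; adjusted p 0.00233). Over the alternatives it lay between -0.42 and -0.27, and its adjusted p was 0.0406 at most. Rpl6, an outer protein of the large subunit, had 1691 and 1785 CPM in KO1, against 2140 and 2107 CPM in WT (-0.29 ± 0.07; adjusted p 0.00551). Its 2 KO1 libraries lay close together and well below WT. Rpl29 had 13.6 and 18.7 CPM in KO1, against 24.9 and 25.1 CPM in WT (-0.63 ± 0.15; adjusted p 0.00673), on counts far lower than those of most members. Rpl4, a protein that lines the exit tunnel, had 2492 and 2449 CPM in KO1, against 2854 and 2877 CPM in WT (-0.21 ± 0.07; adjusted p 0.0261). This was the smallest of the called falls, and the 2 KO1 libraries differed by less than the gap to WT. Rpl7 behaved alike, with 1495 and 1457 CPM in KO1, against 1711 and 1722 CPM in WT (-0.22 ± 0.07; adjusted p 0.0282). The calls of Rpl4 and Rpl7 were lost under several alternatives, among them upper-quartile scaling, library size alone and only the 4 libraries compared. Rpl10a, Rpl8, Rpl34, Rpl12, Rpl30, Rpl22, Rpl10, Rpl13a and Rpl23 were among the remaining large subunit genes called lower, at -0.44 to -0.22. Rpl13a overlaps another annotated gene over 59.3% of its exon bases and had 30.5 and 47.2 CPM in KO1, against 50.1 and 55.5 CPM in WT.

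Among small subunit proteins, Rps28 fell most and stands apart, as described below. Rps3, which lies at the mRNA entry and also takes part in DNA repair, had 1678 and 1918 CPM in KO1, against 2134 and 2191 CPM in WT (-0.27 ± 0.07; adjusted p 0.0168). The groups did not overlap. Rps24 had 1338 and 1346 CPM in KO1, against 1611 and 1519 CPM in WT (-0.22 ± 0.07; adjusted p 0.0306), with nearly equal KO1 libraries. The calls of Rps3 and Rps24 were lost under several alternatives, among them library size alone and only the 4 libraries compared. Rps3a1, Rps7, Rps15 and Rps9 were among the other small subunit genes called lower, at -0.40 to -0.26.

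Rps28, a small protein beside the mRNA exit site, had 118 and 250 CPM in KO1, 302 and 526 CPM in KO2, and 391 and 501 CPM in WT. Both KO1 libraries lay below every library of KO2 and WT, whereas KO2 and WT overlapped. The log2 fold change was -1.28 ± 0.25 (SE; adjusted p 0.00151) in KO1 over WT and -0.11 ± 0.24 (adjusted p 0.815) in KO2 over WT. The clones differed by 1.17 ± 0.25 in KO2 over KO1 (adjusted p 0.00441). The fall in KO1 was -0.84 without the first KO1 library and -1.91 without the second, and its adjusted p was 0.0507 without the second WT library and 0.0923 with DESeq2.

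Rps28 lies on chromosome 17 (33819027 to 33824562, minus strand, GENCODE M21 on GRCm38) inside a stretch of neighbouring genes that were lower in KO1. The stretch, found as a run in the median over 15 neighbouring genes with a mean of 5 CPM or more and a limit of -0.4 on the log2 scale, ran from Stk38 to Cd320 (28970880 to 33849774). Without Rps28 it held 56 tested genes, of which 54 were called lower and 0 higher in KO1, with a median log2 fold change of -0.93, while the rest of the chromosome had a median of -0.05 over 472 genes. The stretch was picked by these same KO1 values, so these KO1 numbers describe it and are no test of it. In KO2 the same 56 genes had a median of 0.00, with 4 called lower and 4 higher. Rps28 was its only ribosomal protein gene. Ndufa7, a subunit of respiratory complex I whose annotated start lies next to that of Rps28 on the other strand, had a log2 fold change of -0.98 ± 0.12 (adjusted p 1.62e-05) in KO1 and -0.23 ± 0.12 (adjusted p 0.194) in KO2. Kank3, the neighbour on the other side, stood at -0.40 ± 0.10 in KO1 (adjusted p 0.00956). Its annotated span (33810519 to 33822918) overlaps that of Rps28, so reads of these 2 genes may not be fully separated. Rps18, the nearest other member, begins 131 kb beyond Rps28 and outside the stretch. It had 1085 and 1411 CPM in KO1, against 1478 and 1545 CPM in WT, a difference of -0.28 ± 0.10 that did not pass the test (adjusted p 0.0673). The other 6 members on chromosome 17 (Rps2, Rpl3l, Rps10, Rpl10a, Rpl7l1 and Rpl36) also lie outside the stretch, and a run of lowered genes found on chromosome 2 in KO1 and in KO2 held 0 of the 4 members on that chromosome. What part the position of Rps28 has in its fall was not tested.

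**Figure D3:**
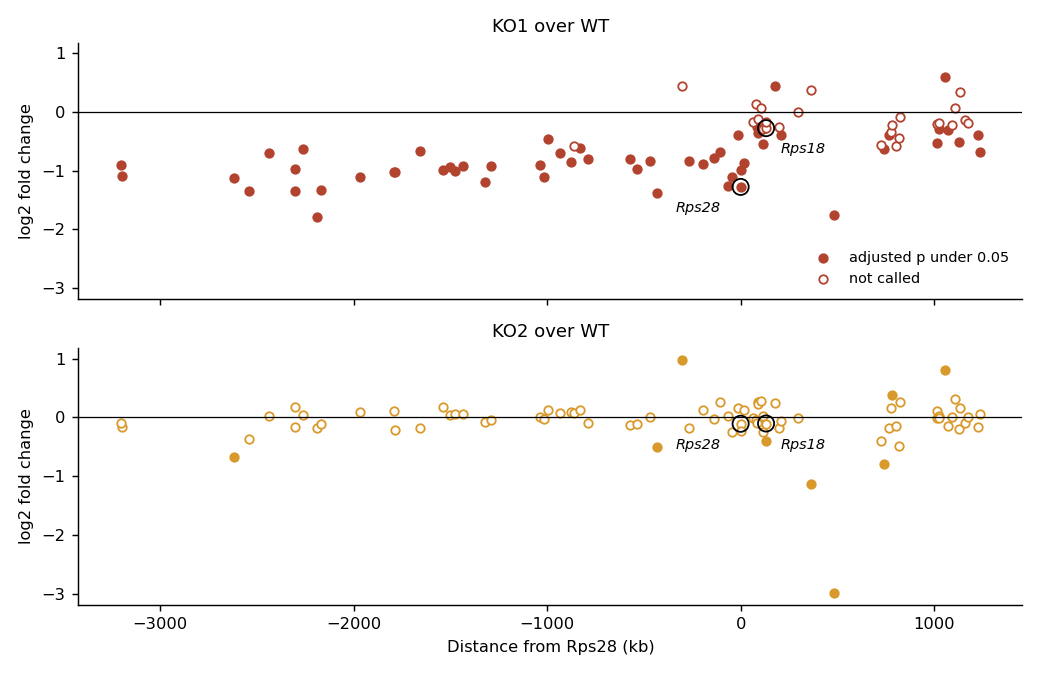
Log2 fold change of Rps28 and of tested genes on both sides of it, by the distance of each gene from Rps28 in kilobases, KO1 over WT in the upper panel and KO2 over WT in the lower, with filled points for an adjusted p under 0.05 and rings around Rps28 and Rps18. In KO1 most genes to the left lie near -0.93 up to Cd320 just right of Rps28, and Rps18 at -0.28 lies beyond that edge, while in KO2 most points lie near 0.

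In KO2 the ribosomal protein genes were close to WT, and in the fit that shares its spread with KO1 the 4 calls were all paralogs of other members. Of 86 members 2 rose and 2 fell, while the test called 17.9% of all genes (10.1% higher and 7.81% lower). The median was -0.09 against 0.00 over all genes, and 73 members had a negative fold change, against 50.2% of all genes. Both KO2 libraries lay below both WT libraries for 28 members and above for 4, against 30.0% and 31.3% of all genes. Without the first KO2 library the median was -0.02 and 1 member was called, and without the second it was -0.16 and 5 were called. The KO1 libraries enter this comparison through the shared spread, on which the number of calls depends. Without the first or second of them the median was -0.09 in each case. A fit of the KO2 and WT libraries alone called 2 members higher and 17 lower, while it called 4065 of all genes, of which 52.5% were higher. Without the first or second WT library the median was -0.10 and -0.07.

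Rpl10l and Rpl22l1 were the members that rose in KO2. Rpl10l, an intronless copy of the X-linked Rpl10 known in mouse for replacing it in meiotic male germ cells, had 227 and 247 CPM in KO2, against 190 and 164 CPM in WT (0.42 ± 0.10; adjusted p 0.00699). The adjusted p was 0.0864 without the second KO2 library and 0.147 without the second WT library. Its KO1 libraries had 183 and 224 CPM, a difference of 0.21 ± 0.10 from WT that did not pass the test (adjusted p 0.156). Rpl10 itself did not pass in KO2 (599 and 637 CPM in KO2, against 689 and 664 CPM in WT; -0.13 ± 0.07, adjusted p 0.247). As a share of the pair per kilobase, Rpl10l made up 22.9% and 23.2% in KO2, 19.7% and 23.2% in KO1, and 17.7% and 16.2% in WT. The coding sequences of the pair are 84.7% identical over their alignment.

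Rpl22l1, the paralog of Rpl22, whose splicing and level Rpl22 is known to restrain in mouse, had 47.2 and 51.3 CPM in KO2, 24.6 and 35.9 CPM in KO1, and 34.7 and 35.8 CPM in WT. Both KO2 libraries were above all others. The log2 fold change was 0.48 ± 0.14 (SE; adjusted p 0.0250) in KO2 over WT, -0.22 ± 0.15 (adjusted p 0.302) in KO1 over WT, and 0.70 ± 0.14 (adjusted p 0.00297) in KO2 over KO1. The call in KO2 over WT was lost without any 1 of the KO2 or WT libraries, at adjusted p of 0.0772 to 0.182, whereas that between the clones held under every alternative run, at 0.46 to 1.01. Rpl22 had 498 and 510 CPM in KO2, 478 and 481 CPM in KO1, and 558 and 558 CPM in WT. It fell in KO1 (-0.22 ± 0.07; adjusted p 0.0393) and did not pass in KO2 (-0.15 ± 0.07; adjusted p 0.181). Rpl22l1 made up 26.0% and 27.2% of the pair per kilobase in KO2, 16.0% and 21.7% in KO1, and 18.8% and 19.2% in WT. The coding sequences are 66.9% identical.

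Rps27l and Rps4l were the members that fell in KO2. Rps27l, a paralog of Rps27 and known as a p53 target in human cells, had 163 and 185 CPM in KO2, against 214 and 230 CPM in WT (-0.35 ± 0.09; adjusted p 0.0152). In KO1 it had 176 and 206 CPM, and the difference of -0.21 ± 0.09 did not pass (adjusted p 0.111). Rps27 had 352 and 527 CPM in KO2, 261 and 399 CPM in KO1, and 365 and 441 CPM in WT. All 3 groups overlapped, and 98.6% of the windows of Rps27 are shared with other genes. Rps4l, annotated as a transcribed processed copy of the X-linked Rps4x, had 473 and 511 CPM in KO2, against 621 and 611 CPM in WT (-0.32 ± 0.10; adjusted p 0.0333). Its KO1 libraries, at 459 and 602 CPM, spanned the KO2 values and did not pass against WT (-0.22 ± 0.10; adjusted p 0.136). The calls of Rps27l and Rps4l were each lost on leaving out some single libraries, at adjusted p of up to 0.234 and 0.250.

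In the other pairs, Rpl7 in KO1 was the 1 member that passed against WT. Rpl39l, a testis-enriched paralog, and Rpl39 stood at -0.20 ± 0.10 and -0.01 ± 0.10 in KO2 over WT, and at -0.08 ± 0.10 and -0.19 ± 0.10 in KO1 over WT. Rpl7l1 and Rpl36a stood at -0.14 ± 0.08 and -0.09 ± 0.09 in KO2 over WT, and at -0.05 ± 0.08 and -0.09 ± 0.09 in KO1 over WT. Rpl3 was close to WT in both clones, at 0.03 ± 0.07 in KO2 and -0.06 ± 0.07 in KO1, and Rps4x stood at -0.13 ± 0.07 in KO2 and -0.19 ± 0.07 in KO1. Rpl36al, the autosomal paralog of Rpl36a, averaged 0.691 ± 0.141 CPM in KO2, 0.584 ± 0.0414 CPM in KO1 and 0.831 ± 0.0256 CPM in WT, too few counts for a comparison of the pair.

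**Figure D4:**
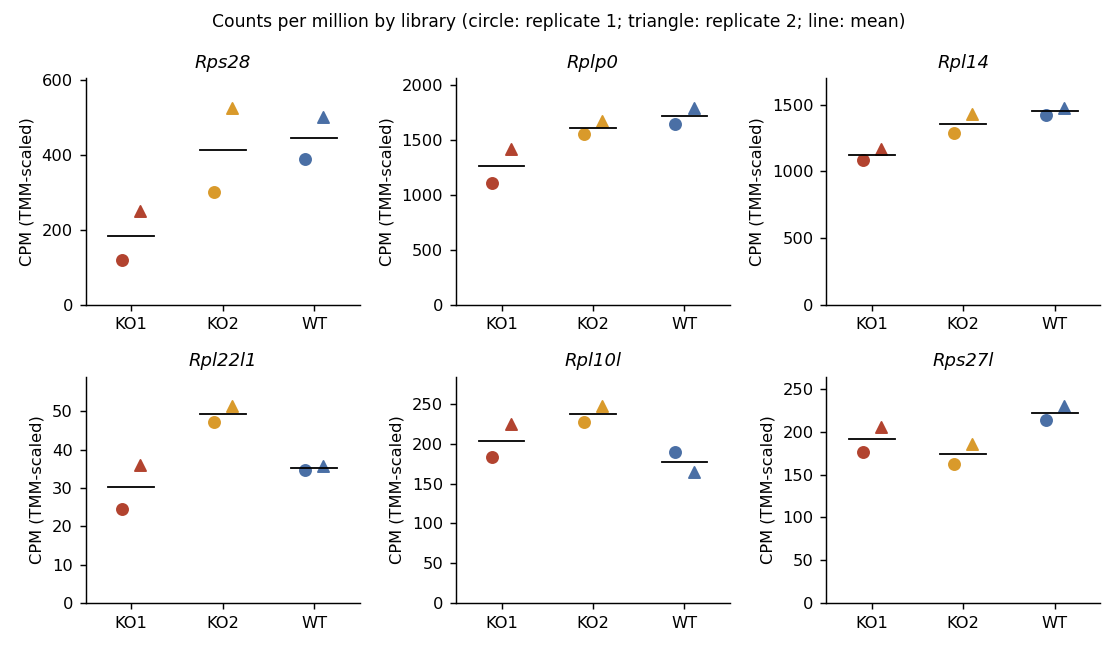
TMM-scaled CPM of Rps28, Rplp0, Rpl14, Rpl22l1, Rpl10l and Rps27l in each library, with KO1, KO2 and WT from left to right, circles for replicate 1, triangles for replicate 2 and a line at the mean of each group. The KO1 points of Rps28, Rplp0 and Rpl14 lie below all KO2 and WT points, while the KO2 points of Rpl22l1 lie above all others.

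The test of the difference between the clones called 11 members higher and 1 lower in KO2 than in KO1, while it called 14.3% of all genes (6.62% higher and 7.71% lower). The median over the 86 members was 0.15, and 81 were positive. Both KO2 libraries lay above both KO1 libraries for 34 members and below for 1, against 26.9% and 27.7% of all genes. Beside Rpl22l1 and Rps28, the P stalk proteins Rplp0 (0.35 ± 0.09; adjusted p 0.0183) and Rplp1 (0.32 ± 0.10; adjusted p 0.0331) were higher. Rplp0 had 1553 and 1673 CPM in KO2, against 1109 and 1414 CPM in KO1, without overlap. Rps26, which lies at the mRNA exit and contacts the mRNA upstream of the decoded codon, had 1034 and 1109 CPM in KO2, against 830 and 907 CPM in KO1 (0.30 ± 0.08; adjusted p 0.0185). Rpl4, Rpl14, Rpl12, Rpl6, Rps2 and Rpl13a made up the rest of the higher calls, at 0.23 to 0.47. The 1 lower call was Rpl3l, with 1.35 and 1.19 CPM in KO2, against 2.62 and 3.14 CPM in KO1 (-1.18 ± 0.38; adjusted p 0.0457). Its adjusted p was 0.149 with DESeq2, and its level was that of a gene at the edge of detection. Without the first KO1 library the median was 0.04, with 11 members called higher and 6 lower, and without the second it was 0.33 with 61 called higher. Without the first KO2 library 5 were called, without the second 1, and without either WT library 7. Library size alone left 2 higher and 1 lower, with 30.1% of all calls higher, against 46.2% under TMM.

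The libraries of a group differed by the length of the coding sequence. In KO1, 74 of 86 members were higher in replicate 2 than in replicate 1, with a median log2 difference of 0.29. The numbers were 76 and 0.16 in KO2, and 62 and 0.05 in WT. Rps29, a short protein of the small subunit head, had 232 and 624 CPM in KO1, 328 and 622 CPM in KO2, and 569 and 695 CPM in WT. In each group the first library was the lower one, and by far the most in KO1. Rpl38, known in mouse for its role in the translation of Hox mRNAs, had 146 and 318 CPM in KO1, 180 and 287 CPM in KO2, and 265 and 330 CPM in WT. Rpl41, the shortest coding sequence of all members, had 787 and 1493 CPM in KO1, 1080 and 1580 CPM in KO2, and 1294 and 1508 CPM in WT. None of these 3 was called against WT in either clone, although their means in KO1 were lower. Rps28 shows the same order of its libraries in each group.

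Over the 7 tested members with a coding sequence under 250 bases the median difference was 0.92 in KO1, 0.55 in KO2 and 0.22 in WT, and over the 30 members of 500 up to 1000 bases it was 0.18, 0.08 and 0.02 in the same order. Among other genes of mean log2 CPM of 5 or more the medians ran the same way in KO1 and KO2 with smaller values: 0.21, 0.13 and 0.01 over 51 genes under 250 bases, and -0.09, -0.03 and 0.02 over 2048 genes of 2000 bases or more, again in the order KO1, KO2, WT. Spearman's correlation of the difference with coding length was -0.50 in KO1, -0.65 in KO2 and -0.41 in WT over 82 members, and -0.32, -0.20 and 0.13 over 5746 other genes. These correlations are across genes of the same pair of libraries, which are not independent replicates. An offset for transcript length, fitted on the other genes and chosen after the data were seen, took the KO1 median of the members to -0.15 with 1 member called higher and 19 lower, and the KO2 median to -0.02 with the same 4 calls. With the first libraries of both clones left out, also chosen after the data were seen, the medians were -0.11 in KO1, with 1 called higher and 17 lower, and -0.02 in KO2, with 4 called higher and 2 lower. Members under 250 bases fell by a median of 0.36 in KO1 over WT, those of 250 to 500 bases by 0.26 and those of 500 bases or more by 0.21, while 1 of 7, 11 of 42 and 15 of 33 were called lower. The longest class thus held the largest share of calls.

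**Figure D5:**
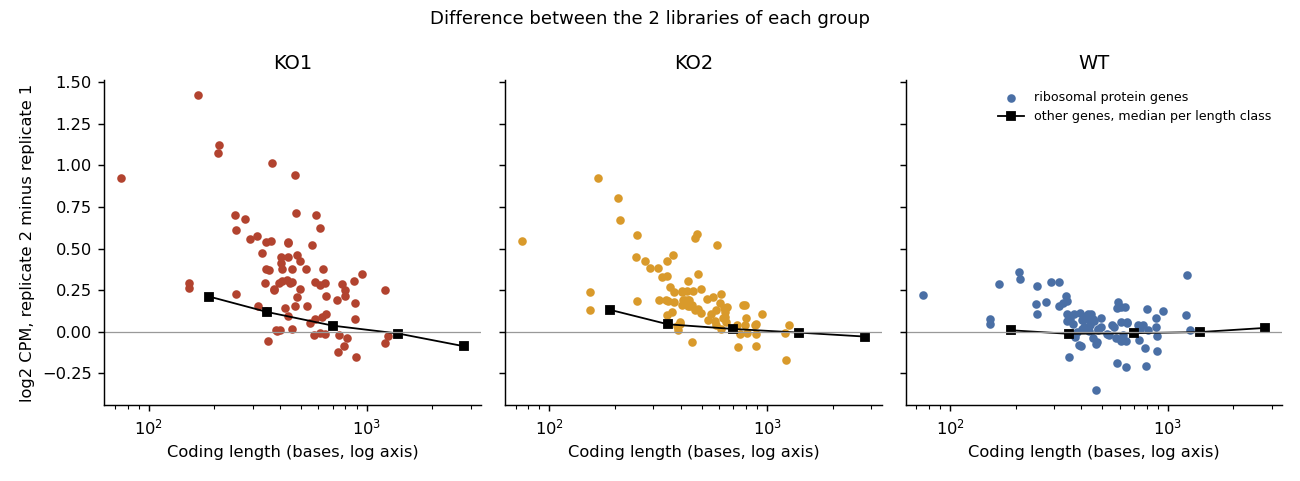
Difference in log2 CPM between replicate 2 and replicate 1 for each ribosomal protein gene against its coding length in bases on a log axis, for KO1, KO2 and WT from left to right; black squares are the medians of other well-expressed genes in 5 length classes, drawn at a point within each class. Short ribosomal protein genes lie above 0 in each panel, with a median of 0.92 in KO1, 0.55 in KO2 and 0.22 in WT for those under 250 bases.

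Of 7 listed ribosomal protein genes outside the symbol rule, 6 were in the files and tested. Fau, whose product is cleaved to the small subunit protein eS30, averaged 632 ± 196 CPM in KO1, 742 ± 109 CPM in KO2 and 816 ± 61.4 CPM in WT, and did not pass against WT in either clone. Of the 6, 1 was called lower in KO1 and 0 were called in KO2. Rack1, a scaffold on the small subunit head, averaged 2547 ± 99.99 CPM in KO2, against 2086 ± 122 CPM in KO1 (0.29 ± 0.07; adjusted p 0.0113). Rps27rt, a retrotransposed copy, was the other call between the clones (0.54 ± 0.17; adjusted p 0.0431).

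Of 23 translation factors and other known TOP mRNAs, 15 fell and 0 rose in KO1, with a median of -0.23, while 2 fell and 0 rose in KO2, with a median of -0.09. Over all genes 9.53% were called lower and 12.4% higher in KO1, and 7.81% lower and 10.1% higher in KO2. Eif3k, a subunit of the initiation factor eIF3, was lower in both clones, at 293 ± 46.5 CPM in KO1 and 333 ± 26.4 CPM in KO2, against 425 ± 22.1 CPM in WT, and it was the 1 gene of the list called with both clones as 1 genotype (-0.44 ± 0.11; adjusted p 0.0484). Npm1, a nucleolar chaperone, averaged 1888 ± 130 CPM in KO1, against 2446 ± 158 CPM in WT (-0.37 ± 0.07; adjusted p 0.00156). Eef1b2 (-0.31 ± 0.07; adjusted p 0.00522) and Pabpc1, the cytoplasmic poly(A)-binding protein (-0.27 ± 0.06; adjusted p 0.00598), were next. Eif3l fell in KO2 (-0.25 ± 0.07; adjusted p 0.0267). Between the clones 7 were higher in KO2 and 0 lower, led by the elongation factor Eef2 at 6025 ± 71.8 CPM in KO2, against 4650 ± 335 CPM in KO1 (0.37 ± 0.07; adjusted p 0.00124), and by Eif4a2 (0.40 ± 0.09; adjusted p 0.00475).

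Of 45 ribosome biogenesis factors tested, 17 fell and 0 rose in KO1, with a median of -0.18, and 2 fell and 1 rose in KO2, with a median of -0.10. The test called 21.9% of all genes in KO1 (9.53% lower) and 17.9% in KO2 (7.81% lower). Rrp1b lies in the same lowered stretch of chromosome 17 as Rps28 and averaged 103 ± 2.47 CPM in KO1, against 208 ± 9.08 CPM in WT (-1.02 ± 0.08; adjusted p 1.94e-07). Noc2l (-0.48 ± 0.08; adjusted p 0.000380), Rrp9 (-0.48 ± 0.09; adjusted p 0.00146) and the nucleolar GTPase Gnl3 (-0.38 ± 0.08; adjusted p 0.00222) followed. Gnl3 was lower in KO2 too (-0.24 ± 0.08; adjusted p 0.0369), as was Utp20 (-0.40 ± 0.09; adjusted p 0.00356), whereas Rrp12, a factor of small subunit export, rose (0.33 ± 0.08; adjusted p 0.0104). Of 15 genes of RNA polymerase I and its factors, 2 fell in KO1, namely Taf1a (-0.65 ± 0.16; adjusted p 0.00629) and Polr1c (-0.30 ± 0.08; adjusted p 0.0167), and 0 were called in KO2. Between the clones 4 were higher in KO2, among them Polr1b (0.33 ± 0.08; adjusted p 0.0102) and the rDNA factor Ubtf (0.30 ± 0.08; adjusted p 0.0185).

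Of 15 p53 targets known from the response to nucleolar stress, 2 rose and 5 fell in KO1, and 1 rose and 6 fell in KO2. Over all genes 12.4% were called higher and 9.53% lower in KO1, and 10.1% higher and 7.81% lower in KO2. Cdkn1a, a cyclin-dependent kinase inhibitor, averaged 115 ± 13.4 CPM in KO1, 222 ± 6.40 CPM in KO2 and 184 ± 12 CPM in WT. It fell in KO1 (-0.67 ± 0.09; adjusted p 5.97e-05), rose in KO2 (0.27 ± 0.09; adjusted p 0.0443) and differed between the clones (0.94 ± 0.09; adjusted p 3.26e-06). Gdf15 fell in KO1, at 12.3 ± 1.92 CPM, against 27.2 ± 1.64 CPM in WT (-1.14 ± 0.15; adjusted p 3.73e-05). Trp53inp1 was lower in both clones and was the 1 gene of the list called with both as 1 genotype (-0.37 ± 0.09; adjusted p 0.0397). Mdm2, the target of free Rpl5 and Rpl11, averaged 145 ± 4.78 CPM in KO1, 144 ± 9.5 CPM in KO2 and 141 ± 5.73 CPM in WT, and did not pass in either clone.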

How the data were processed

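The deposited files hold raw gene counts per library, which per the labels come from RNA depleted of ribosomal RNA with the Ribo-Zero Gold kit. Among tools, HISAT2 2.1.0, HTSeq 0.9.1 and DESeq2 1.18.1 appear in the submitters' processing notes, with mm10 as the build. Which annotation and strand setting the counting used is not given in the sources at hand, so overlapping genes cannot be separated. The 5 HTSeq summary entries stayed out: 4.14% to 5.35% of a library's reads had no feature, 6.96% to 9.10% were ambiguous and 15.6% to 16.6% aligned more than once.

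Counts were tested with edgeR 4.0.16 (TMM, filterByExpr, quasi-likelihood F test, two-sided, Benjamini-Hochberg adjustment over all 14946 genes tested, threshold 0.05) in R 4.3.3. Both clones were compared with WT as 1 genotype. Each clone contrast was taken from a model of 3 groups with a common spread. The genes and lists were chosen with earlier results of these data known, and list genes are counted without a test of the list. The genes named were called members (up to 25 by smallest p, or the 3 smallest p where fewer than 3 were called), 8 paralog pairs, the 3 highest and 3 lowest levels, up to 4 called genes per list, Bcat1, and members in lowered stretches. Rpl23 and Rps9 (the 2 calls beyond 25), Rps29, Rpl38, Rpl41, Rps18, Fau, Mdm2, the P stalk and p53-linked members that were not called, and Ndufa7 and Kank3 were named after their values were seen. Levels between genes were compared per kilobase of the transcript chosen in GENCODE M21 (GRCm38). Identity of paralogs was computed on coding sequences, since no protein table was at hand. Start regions came from RefSeq. Alternatives were DESeq2 1.42.0, other size factors and filters, a replicate block, fits of 4 libraries, leaving out each library, and 4 additions chosen after seeing the data. Where a library was left out of a pair, the lone one was assumed to vary like the other groups. The fits were run on simulated data with planted changes larger than most of those of the members. The simulation had no shift shared by genes of a library, so it checks the code and not these calls. No pair of libraries within a group agreed within sampling noise in a chi-square check, so none was counted as a duplicate. A few of the genes are counted but not reported here by name. Intervals cover counting error only.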

Additional observations from a re-analysis of the deposited data

Results flagged for a closer look

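The effects of the 2 clones against WT differed for 12 ribosomal protein genes by the test of the difference itself (edgeR, KO2 over KO1, adjusted p under 0.05). On the log2 scale the difference was 0.70 for Rpl22l1, 1.17 for Rps28, 0.35 for Rplp0, 0.30 for Rps26, 0.24 for Rpl4, 0.27 for Rpl14, 0.28 for Rpl12, 0.32 for Rplp1, 0.23 for Rpl6, -1.18 for Rpl3l, 0.26 for Rps2 and 0.47 for Rpl13a. Of these, the difference of Rpl22l1 kept its call under every alternative that was run, while each of the others lost it under at least 1 alternative. The 4 libraries labelled knockout were also searched, in 39 genes, for a library far from the other 3. None passed Dixon's 95% limit, which chance passes in about 1 in 20 groups of independent values. These libraries are 2 from each of 2 clones, and a difference between clones widens their range. The search therefore cannot exclude a library that stands apart.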

How the results depend on the processing

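With both clones as 1 genotype, 951 genes and 0 ribosomal protein genes were called. These counts were 1752 and 6 with no filter on low counts, 3226 and 15 as the mean of both clone contrasts, and 79 to 948 and 0 to 1 on leaving out each library in turn. Genes called were 559 without the first libraries of both clones, and 592 with a transcript length offset and replicate block.

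For KO1 against WT, the 27 ribosomal protein genes called became 10 with upper-quartile scaling, 8 with library size only, 63 with no filter, 15 with only the 4 libraries compared and 4 to 71 on leaving out each library. The 3280 genes called became 1576 to 4310 on leaving out each library. The median of the members was -0.38 to -0.11 on leaving out each library and -0.11 without the first libraries of both clones. For KO2 against WT, the 4 called became 14 with no filter, 19 with only the 4 libraries compared and 0 to 21 on leaving out each library, while the 2674 genes called became 4065 and 1165 to 4191 under the last 2 of these. For KO2 against KO1, the 12 called became 5 with upper-quartile scaling, 3 with library size only, 28 with no filter, 3 with only the 4 libraries compared and 1 to 61 on leaving out each library. The 2141 genes called became 974 to 3155 on leaving out each library, and the median of 0.15 lay between 0.043 and 0.33. The cause of these shifts was not tested.

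The replicate numbers give 2 pairs only and nothing in the labels ties them, so the block stands here alone. Deviations of same-numbered libraries correlated at 0.13 (KO1 with KO2), 0.05 (KO1 with WT) and -0.01 (KO2 with WT) over all genes, and at 0.88, 0.49 and 0.39 over the members. With the replicate block 70 members were called in KO1, 16 in KO2, 34 between the clones and 0 for the genotype. Over all genes that fit called 4410, 3685, 3007 and 646 in the same order. With the length offset and the block the members called were 47, 19, 38 and 0, and the genes called in all were 4761, 3925, 3480 and 592.

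The sign reversed for some members that were not called against WT. For Rpl22l1, KO1 against WT, the log2 fold change was -0.52 to 0.023 on leaving out each library and 0.028 without the first libraries of both clones. Rpl3 was 0.030 in KO1 with library size only, and -0.018 to 0.086 in KO2 on leaving out each library. That of Rpl36a, KO1 against WT, was 0.00098 with library size only, 0.087 with the length offset and 0.088 with the block added, and in KO2 0.0339 and 0.0344 under these. That of Rpl39, KO2 against WT, was 0.0050 with library size only, -0.14 to 0.093 on leaving out each library, 0.0927 without the first libraries, 0.087 with the offset and 0.086 with the block added. That of Rpl39l, KO1 against WT, was 0.00817 with library size only, -0.22 to 0.040 on leaving out each library, 0.044 without the first libraries, 0.026 with the offset and 0.025 with the block added. That of Rpl7, KO2 against WT, was 0.020 with the offset and 0.019 with the block added. That of Rpl7l1, KO1 against WT, was 0.0027 with upper-quartile scaling, 0.046 with library size only and up to 0.012 on leaving out each library. That of Rps27, KO2 against WT, was -0.20 to 0.38 on leaving out each library.

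Of 697 alternative values for 41 calls of single members (all 43 but those of Rpl23 and Rps9 in KO1), 479 kept the call and 218 lost it. The share of start regions with a run was 60.3% for runs of 6 or more and 36.5% for 10 or more, against 46.0% for 8 or more. The length offsets, the fit without the first libraries and the mean of clone contrasts were chosen after seeing the data. With 2 libraries a group and 1 clone each, an effect of the genotype and a difference between clones cannot be told apart, and members with few counts, such as Rpl3l and Rpl29, have wide errors.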
